A study of Danio rerio with 12 samples.

Results

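Glutamate receptor genes were examined in whole zebrafish larvae that lack Elmo3 and in their wild types. Members were all genes whose lower case symbol begins with gria, grik, grid or grm followed by a digit, or with grin1, grin2 or grin3, and this rule matched 45 of the 32520 genes in the tables. Of these, 43 encode receptors. They comprise 8 AMPA, 6 kainate, 3 delta and 13 NMDA receptor subunits, and 4 group I, 3 group II and 6 group III metabotropic receptors. The other 2 are copies of grid2ip, a scaffold protein of the synapse, and they are kept apart from the receptors. The rule itself uses gene symbols and no measured value.

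Glutamate is the main excitatory transmitter of the vertebrate brain and retina. Ionotropic receptors are cation channels that glutamate opens: AMPA receptors carry most fast transmission, NMDA receptors admit calcium and need glycine or D-serine as a co-agonist, and kainate receptors modulate transmission on both sides of the synapse. Delta receptors are related in structure but bind cerebellin at the synapse. Metabotropic receptors signal through G proteins, group I to phospholipase C and groups II and III to a lowered cyclic AMP. Many zebrafish receptor genes have 2 copies that remain from a whole genome duplication in the ancestor of teleost fish.

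The elmo3-/- larvae were homozygous for a frameshift deletion in elmo3, which CRISPR/Cas9 had introduced into the reporter line Tg(fli1:EGFP), and the elmo3+/+ larvae were wild type for elmo3. The fli1 promoter drives EGFP in endothelial cells of this line, and both genotypes are of this line. Each genotype had 6 samples, each sample was a pool of 30 larvae at 120 hpf (hours post fertilization), and no treatment was named. Larvae were pooled whole, so the RNA came from all tissues, and fewer cells of a type cannot be told apart from less RNA per cell. Nothing in the labels says that the pools came from separate clutches, so the p-values below measure the spread between these pools.

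The total count was 16851426 to 17188263 per elmo3-/- pool and 16927275 to 17577126 per elmo3+/+ pool. Mitochondrially encoded genes took 8.46 ± 1.24% of the counts in elmo3-/- larvae and 7.21 ± 0.897% in elmo3+/+ larvae (SD, n = 6 each), and their part in the results below was not tested. The targeted gene elmo3 had 45 to 91 counts per elmo3-/- pool and 44 to 99 counts per elmo3+/+ pool (log2 fold change 0.03, SE 0.19, adjusted p = 0.967, edgeR), so its RNA level was no check of the genotype labels. Over all 21127 genes tested, 12 were called higher and 9 lower in elmo3-/- larvae at an adjusted p under 0.05 (edgeR).

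All 45 members passed the filter on low counts, and the lowest count of any member in any pool was 38. Levels are given in TPM, a measure of transcript abundance divided by transcript length and brought to 1 common sum per pool, which allows genes to be set side by side. Where 2 genes carry the same symbol, the last 5 digits of the Ensembl ID follow it, so that gria3-32737 is ENSDARG00000032737.

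The receptor RNA of the larvae was mainly AMPA and NMDA receptor subunits. The 8 AMPA subunits made up 39.3 ± 2.13% of the summed TPM of the 43 receptor genes, and the 13 NMDA subunits made up 36.85 ± 1.014% (SD, n = 12 pools). Only 6 receptor genes averaged over 30 TPM, all of them AMPA or NMDA subunits. Another 21 lay between 5 and 30 TPM and 16 lay under 5 TPM.

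**Figure D1:**
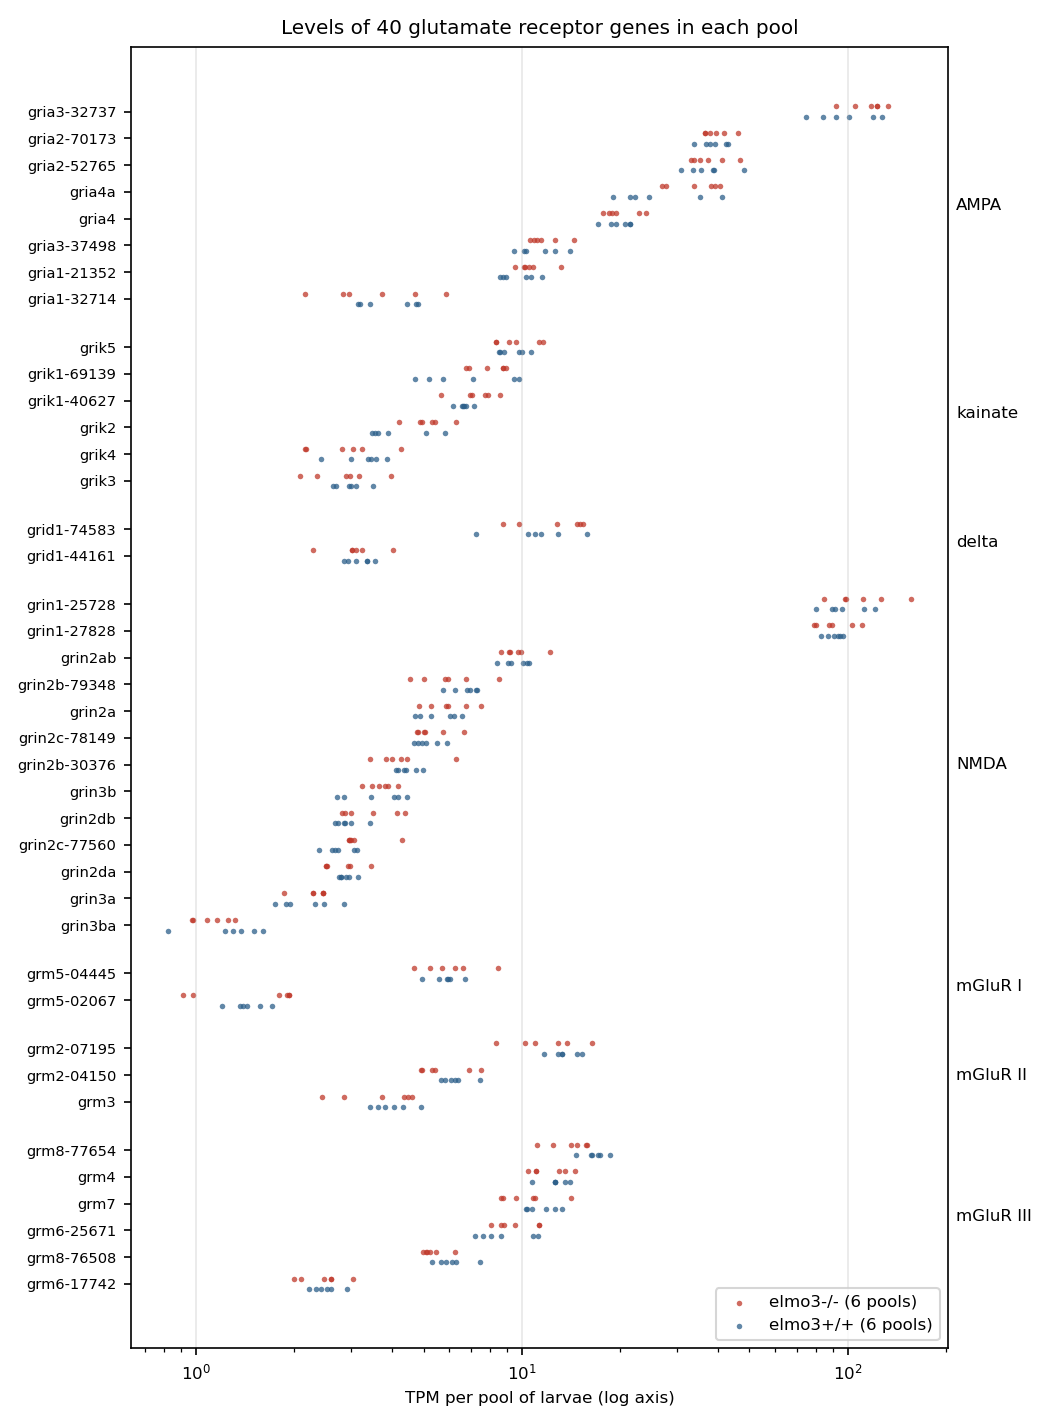
TPM of each of 40 receptor genes (log axis), 1 point per pool, with 6 elmo3-/- pools (red, upper row of each gene) and 6 elmo3+/+ pools (blue, lower row), ordered by mean level within each subfamily. The 2 grin1 and 4 AMPA subunits average over 30 TPM, and the points of the genotypes overlap for every gene.

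Among the AMPA subunits, gria3-32737 was the most abundant, with 108 ± 18.9 TPM over the 12 pools (SD). It was followed by the copies of gria2, the subunit that limits the calcium permeability of the channel in mammals, with 39.3 ± 3.47 TPM for gria2-70173 and 37.8 ± 5.38 TPM for gria2-52765. The copies of gria4 reached 30.8 ± 8.02 TPM for gria4a (ENSDARG00000037496) and 20.1 ± 2.09 TPM for gria4 (ENSDARG00000059368). The remaining AMPA subunits were lower, gria3-37498 at 11.6 TPM, gria1-21352 at 10.3 TPM and gria1-32714 at 3.83 TPM. Summed over copies, gria2 contributed 28.35 ± 2.35% of AMPA subunit TPM in elmo3-/- larvae and 31.0 ± 2.12% in elmo3+/+ larvae, and gria3 contributed 46.5 ± 2.405% in elmo3-/- larvae and 44.6 ± 1.77% in elmo3+/+ larvae (SD, n = 6 each). The ranges of both shares overlapped between genotypes.

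Among the NMDA subunits, the copies of grin1, the glycine-binding subunit that every NMDA receptor contains, accounted for most of the RNA. They averaged 106 ± 21.5 TPM for grin1-25728 and 91.3 ± 9.34 TPM for grin1-27828 (SD, n = 12 pools). Their share of NMDA subunit TPM was 80.8 ± 1.65% in elmo3-/- larvae and 79.9 ± 1.18% in elmo3+/+ larvae (SD, n = 6 each). The 8 grin2 genes, which encode the glutamate-binding subunits, each lay between 2.85 TPM (grin2da) and 9.72 TPM (grin2ab). Within the grin2 group, the pair grin2ab and grin2a held 38.6 ± 1.15% of the TPM in elmo3-/- larvae and 37.9 ± 1.86% in elmo3+/+ larvae. The grin2b pair followed with 25.3 ± 2.07% in elmo3-/- larvae and 27.9 ± 1.97% in elmo3+/+ larvae. The grin3 genes, whose products bind glycine in place of glutamate, were rare, at 3.66 TPM for grin3b, 2.255 TPM for grin3a and 1.22 TPM for grin3ba.

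Kainate and delta receptor subunits were less abundant. Among the kainate subunits, grik5 (ENSDARG00000101449), which encodes a subunit of high affinity that needs a partner from grik1 to grik3 to reach the membrane in mammals, was the highest single gene with 9.57 ± 1.15 TPM. It was followed by grik1-69139 with 7.50 ± 1.70 TPM, grik1-40627 with 6.97 ± 0.786 TPM and grik2 (ENSDARG00000113771) with 4.705 ± 0.941 TPM, whereas grik4 and grik3 lay at 3.11 TPM and 2.94 TPM. Summed over copies, grik1 held more of the kainate subunit TPM than grik5. Its share was 42.5% in elmo3-/- larvae and 40.5% in elmo3+/+ larvae, against 27.0% and 28.15% for grik5. In counts the shares were close, 28.8% and 28.1% for grik1 and 27.3% and 29.05% for grik5 in the same order. For grik2 they were 28.0% and 25.0% in counts, against 14.3% and 12.5% in TPM. The delta subunit grid1-74583 had 12.1 ± 2.81 TPM, above 3.15 TPM for its copy grid1-44161 (SD, n = 12 pools). The grid2ip copies had 7.24 TPM (grid2ip-95603) and 2.59 TPM (grid2ip-76103).

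Among the metabotropic receptors, group III was the most abundant. It summed to 54.3 ± 5.79 TPM in elmo3-/- larvae and 58.6 ± 2.47 TPM in elmo3+/+ larvae (SD, n = 6 each), led by grm8-77654 (15.4 TPM), grm4 (12.5 TPM) and grm7 (11.03 TPM), which act mostly at presynaptic terminals. The group III receptor grm6 is known from retinal ON bipolar cells, where it receives the photoreceptor signal, and its copies had 9.28 TPM (grm6-25671) and 2.49 TPM (grm6-17742). The remaining group III gene grm8-76508 had 5.74 TPM. Group II was led by grm2-07195 with 12.8 TPM, followed by grm2-04150 with 6.05 TPM and grm3 with 3.885 TPM. The group I receptor grm5-04445 had 6.005 TPM. Among the lowest levels were those of its copy grm5-02067 (ENSDARG00000102067) with 1.515 TPM and of grin3ba with 1.22 TPM.

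Neighbours in the order of mean levels often did not differ beyond their spread. The gene gria3-32737 was above grin1-25728 in 7 of 12 pools, and grin1-25728 was above grin1-27828 in 9 of 12. In contrast, grin1-27828 was above the next gene, gria2-70173, in 12 of 12 pools, as were gria4a above gria4 and gria4 above grm8-77654. Below grm8-77654 the next ranks were not separated, since grm2-07195 was above grm4 in 6 of 12 pools and grm4 was above grid1-74583 in 6 of 12.

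The first rank of gria3-32737 held only after division by transcript length. It had 13.0 counts per TPM, the lowest of all members, whereas grin2da had 141 counts per TPM, the highest. In CPM, counts scaled by library size and not divided by length, gria3-32737 had 81.1 ± 12.8 CPM, against 414 ± 94.1 CPM for grin1-25728 and 262 ± 29.0 CPM for grin1-27828. The gria2 copies were close to gria3-32737 in this unit, with 80.1 ± 5.12 CPM (gria2-70173) and 78.2 ± 6.45 CPM (gria2-52765). By CPM the NMDA subunits made up 50.4 ± 1.75% of the receptor sum and the AMPA subunits 25.2 ± 0.727% (SD, n = 12 pools). The order of the metabotropic receptors depended on the unit too. In CPM grm4 (31.2) and grm6-25671 (29.6) were above grm8-77654 (24.7) and grm7 (17.7). All 4 were below grm2-07195 (45.2) and grm5-04445 (38.4). Which transcripts of each gene were present was not analysed here.

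Among the receptor genes, 32 genes in 16 pairs of copies were compared. In 12 of these pairs the same copy had the higher TPM in 12 of 12 pools. The widest gap was that of gria3, where gria3-32737 exceeded gria3-37498 by 3.20 ± 0.1801 on the log2 scale, followed by grm5 with 2.01 ± 0.282 (grm5-04445 over grm5-02067; SD, n = 12 pools). The gria2 copies were close to each other, with a log2 ratio of 0.06 ± 0.111, as were the copies of grik1 with 0.08 ± 0.305, grin2d with 0.15 ± 0.272 and grin1 with 0.19 ± 0.247. In these 4 pairs the copy with the higher mean was not the higher one in every pool.

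**Figure D2:**
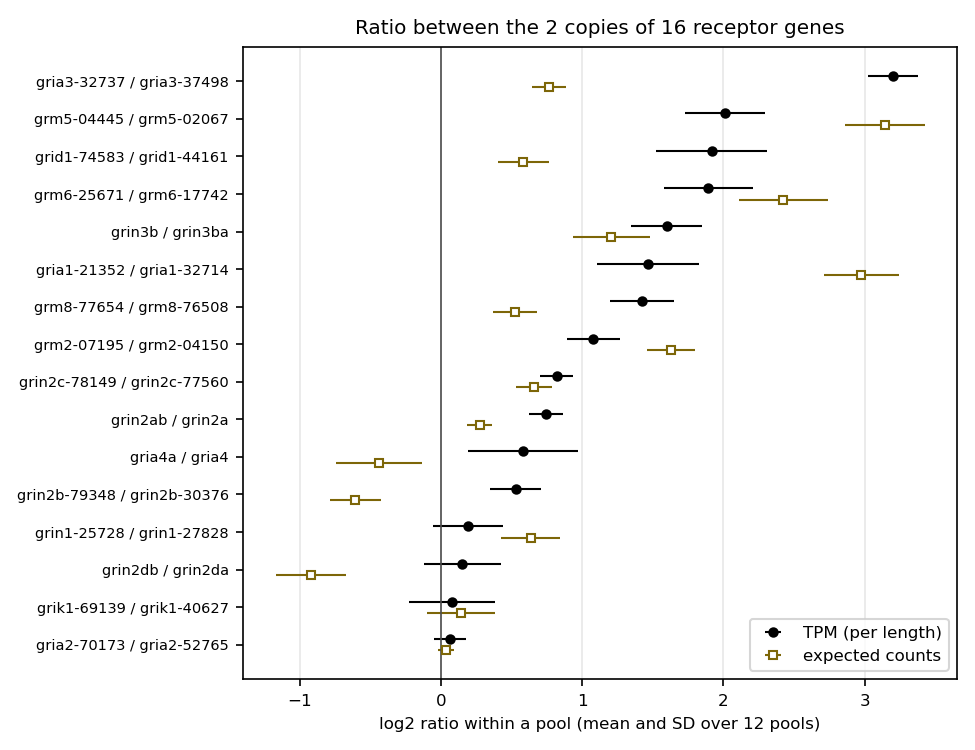
Log2 ratio of the copy with the higher mean TPM over the other copy for 16 pairs, as mean and SD over 12 pools, from TPM (filled circles) and from expected counts (open squares). The gria3 ratio is 3.20 in TPM and 0.77 in counts, and the gria4, grin2b and grin2d ratios lie on opposite sides of 0 in the 2 units.

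The order of the copies depended on the division by length in 3 pairs. In counts, gria4a lay below gria4 (log2 ratio -0.44 ± 0.304), grin2b-79348 below grin2b-30376 (-0.60 ± 0.1804) and grin2db below grin2da (-0.92 ± 0.249). The gria3 gap narrowed to 0.77 ± 0.120 in counts, whereas that of gria1 widened to 2.98 ± 0.265, from 1.47 ± 0.359 in TPM. Counts that were not whole numbers (tolerance 0.001) occurred in at least 1 pool for 17 members, as happens when a read is divided between genes. In the gria3, grm2, grm5 and grin3b pairs 1 copy had such counts in 12 of 12 pools and the other in 0. Which genes shared these reads was not examined, and how uncertain the levels of near-identical copies are was not tested. No pair differed between genotypes without overlap in its TPM ratio. The gria4 ratio averaged 0.75 ± 0.349 in elmo3-/- larvae and 0.41 ± 0.369 in elmo3+/+ larvae, and that of grin2c averaged 0.74 ± 0.114 in elmo3-/- larvae and 0.90 ± 0.0531 in elmo3+/+ larvae (SD, n = 6 each).

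To examine whether loss of Elmo3 goes along with another level of receptor RNA, the genotypes were compared gene by gene (edgeR quasi-likelihood test, Benjamini-Hochberg adjustment over all 21127 genes). None of the 45 members was called at an adjusted p under 0.05, and the share over all genes was 0.0994%. At so low a share, 0 of 45 does not set the members apart from all genes. The smallest adjusted p of a member was 0.499. At an unadjusted p under 0.05, 3 members were higher in elmo3-/- larvae and 0 were lower, against 4.58% and 4.95% of all genes. This count of 3 was 9 without elmo3+/+ replicate 1, 8 without elmo3+/+ replicate 3, and 6 without elmo3-/- replicate 4 or replicate 5. It was 1 without elmo3+/+ replicate 5, and without elmo3-/- replicate 6 it was 0 higher and 1 lower. The share of all genes at this unadjusted p is not given for these refits. Their counts therefore show a dependence on single pools and cannot be set against all genes. DESeq2 also called 0 members (0.193% of all genes) and placed 3 under an unadjusted p of 0.05 (7.53% of all genes). By limma on log2(TPM + 1), 0 members were called (0.0947% of all genes) and 1, grm8-77654, lower in elmo3-/- larvae, lay under an unadjusted p of 0.05 (9.06% of all genes). In this limma fit the log2 fold change was above 0 for only 30.77% of all genes, with a median of -0.06. The CPM of the genotypes overlapped for all 45 members. Over all genes 0.431% did not overlap, counting both directions, so this does not set the members apart either.

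Most point estimates were positive. The log2 fold change was above 0 for 35 of 45 members, against 51.1% of all genes, and the median was 0.10 for the members and 0.0045 for all genes. This count was 27 of 45, with a median of 0.05, when elmo3-/- replicate 6 was left out. It was 25 of 45 with 1 surrogate variable in the model (median 0.01, 52.3% of all genes) and 26 of 45 with total count scaling (median 0.04, where the median of all genes was -0.05 and 36.98% of them were above 0). Fold changes ranged from -0.14 to 0.35 on the log2 scale, and the single-gene 95% intervals of all members together reached from a ratio of 0.728 to 1.59, so larger changes lie outside the interval of every member.

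**Figure D3:**
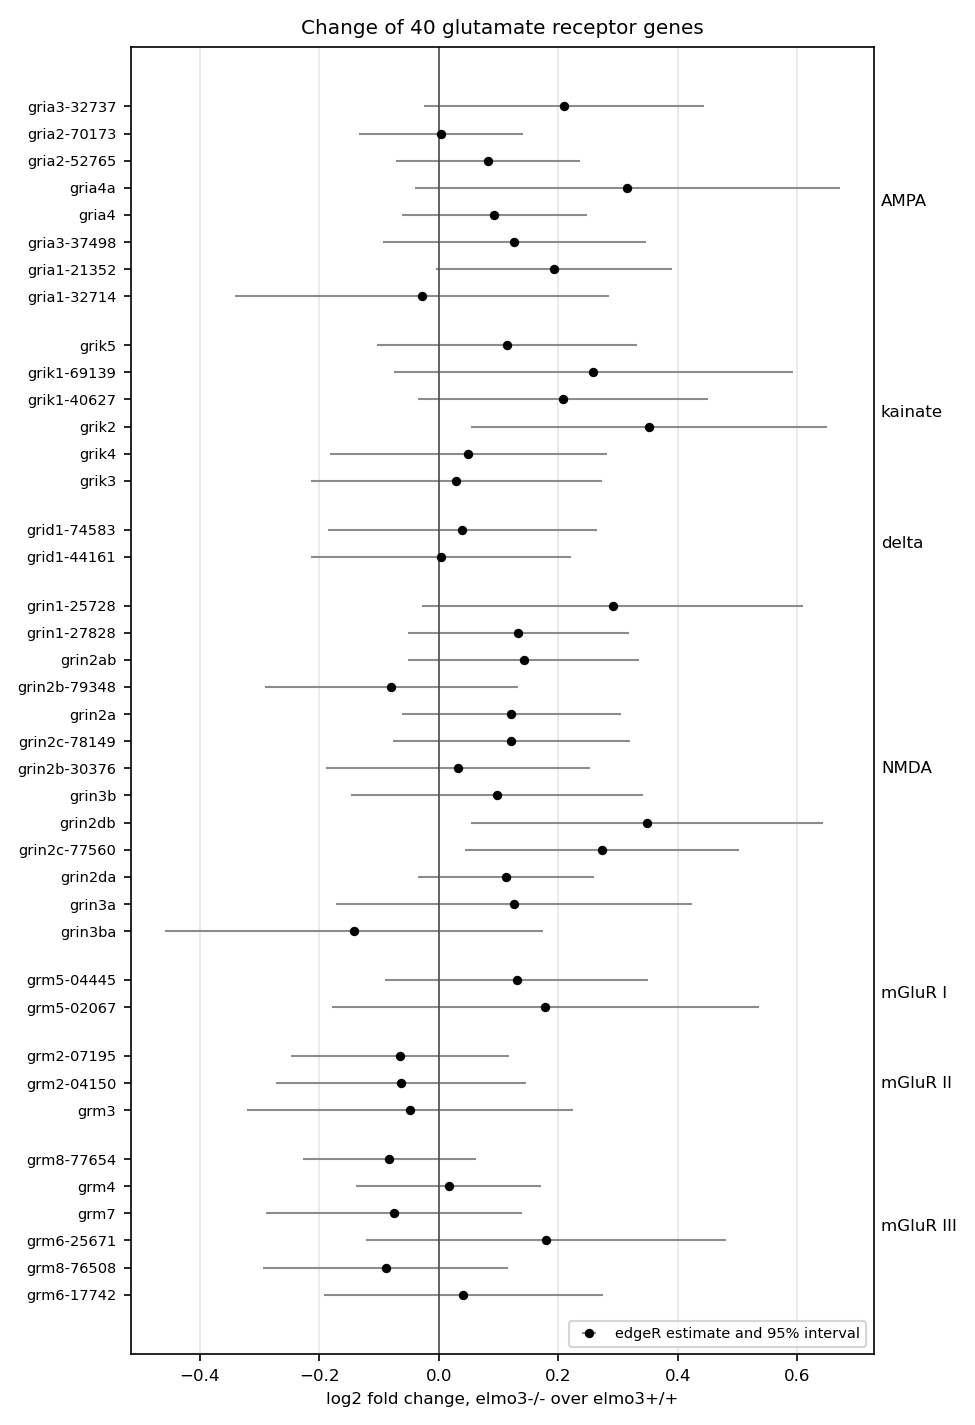
Log2 fold change, elmo3-/- over elmo3+/+, with 95% interval (edgeR) for 40 receptor genes in the order of the plot of levels. The interval lies above 0 for grik2, grin2db and grin2c-77560 and includes 0 for all others, before adjustment for 21127 genes.

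The 3 members with an unadjusted p under 0.05 were a kainate subunit and a pair of NMDA subunits. The kainate subunit grik2 had 26.0, 33.3 and 36.9 CPM as lowest, median and highest value in elmo3-/- larvae, against 20.5, 23.0 and 35.45 CPM in elmo3+/+ larvae (log2 fold change 0.35, SE 0.14, adjusted p = 0.499, edgeR). The 2 highest elmo3+/+ pools, replicates 3 and 1 with 35.45 and 32.1 CPM, lay within the elmo3-/- range, and the other 4 lay below it. The NMDA subunit grin2db (ENSDARG00000070620) had 10.7, 14.3 and 17.3 CPM in elmo3-/- larvae, against 9.90, 10.3 and 14.01 CPM in elmo3+/+ larvae (log2 fold change 0.35, SE 0.14, adjusted p = 0.499). The NMDA subunit grin2c-77560 had 11.5, 12.8 and 15.2 CPM in elmo3-/- larvae, against 8.89, 10.05 and 13.1 CPM in elmo3+/+ larvae (log2 fold change 0.27, SE 0.11, adjusted p = 0.499). For each of these 3 genes all 6 elmo3-/- pools lay above the elmo3+/+ median. The genes were picked by their p-values from the same pools, so this is no further support, and it was not counted over all genes.

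Of the more abundant subunits, grin1-25728 had 339.8, 455.5 and 577 CPM as lowest, median and highest value in elmo3-/- larvae, against 286, 345 and 486 CPM in elmo3+/+ larvae (log2 fold change 0.29, SE 0.15, adjusted p = 0.554). The AMPA subunit gria3-32737 had 76.7, 88.65 and 99.2 CPM in elmo3-/- larvae, against 61.6, 70.3 and 98.1 CPM in elmo3+/+ larvae (log2 fold change 0.21, SE 0.11, adjusted p = 0.559). The highest elmo3+/+ value of both genes came from replicate 1, and replicate 3 was next. The AMPA subunit gria4a had 34.4, 43.8 and 53.3 CPM in elmo3-/- larvae, against 25.8, 31.05 and 51.4 CPM in elmo3+/+ larvae (log2 fold change 0.32, SE 0.17, adjusted p = 0.564). The AMPA subunit gria1-21352 had 69.0, 72.9 and 84.7 CPM in elmo3-/- larvae, against 54.7, 63.1 and 79.7 CPM in elmo3+/+ larvae (log2 fold change 0.19, SE 0.09, adjusted p = 0.534). Again elmo3+/+ replicates 1 and 3 were the highest wild type pools for both genes and lay within the elmo3-/- range.

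The kainate subunit grik1-40627 had 11.8, 15.7 and 20.35 CPM in elmo3-/- larvae, against 12.3, 13.8 and 15.4 CPM in elmo3+/+ larvae, a log2 fold change of 0.21 (SE 0.11, adjusted p = 0.573, edgeR). Its copy grik1-69139 had 15.3, 16.6 and 23.3 CPM in elmo3-/- larvae, against 9.70, 14.45 and 19.2 CPM in elmo3+/+ larvae (log2 fold change 0.26, SE 0.16, adjusted p = 0.604). The genotypes overlapped for both copies, and all 6 elmo3-/- pools lay above the elmo3+/+ median for grik1-69139, as did 4 of 6 for grik1-40627. Both copies were also named by their p-values, so these counts add no support either. The NMDA subunit grin2da (ENSDARG00000086207) had 22.5, 24.2 and 26.7 CPM in elmo3-/- larvae, against 19.99, 22.5 and 24.5 CPM in elmo3+/+ larvae (log2 fold change 0.11, SE 0.07, adjusted p = 0.607), which is one of the narrowest spreads among the members.

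The 10 fold changes with the smallest p-values were smaller with 1 surrogate variable in the model. The log2 fold change was then 0.12 for grik2, 0.17 for grin2db and 0.12 for grin2c-77560. It was 0.038 for grin1-25728, 0.027 for gria3-32737, 0.029 for gria4a and 0.058 for gria1-21352. For grik1-40627 it was 0.058, for grik1-69139 0.015 and for grin2da 0.047.

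The leading genes of the other subfamilies showed small differences inside wide overlaps. The kainate subunit grik5 had 28.03, 29.85 and 40.5 CPM in elmo3-/- larvae, against 26.0, 29.1 and 33.9 CPM in elmo3+/+ larvae (log2 fold change 0.11). The delta subunit grid1-74583 had 13.7, 16.3 and 18.5 CPM in elmo3-/- larvae, against 12.3, 15.6 and 19.0 CPM in elmo3+/+ larvae (0.04). The scaffold gene grid2ip-95603 had 18.3, 20.0 and 24.65 CPM in elmo3-/- larvae, against 16.9, 20.4 and 22.55 CPM in elmo3+/+ larvae (0.03). The adjusted p of these 3 genes was 0.723 or higher.

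The leading group II and group III metabotropic receptors had negative point estimates. The group II receptor grm2-07195 had 35.4, 43.8 and 54.1 CPM in elmo3-/- larvae, against 44.5, 45.1 and 52.3 CPM in elmo3+/+ larvae (log2 fold change -0.06, adjusted p = 0.827). The group III receptor grm8-77654 had 22.05, 23.3 and 26.5 CPM in elmo3-/- larvae, against 24.1, 25.2 and 27.7 CPM in elmo3+/+ larvae (-0.08, adjusted p = 0.698). By limma on log2(TPM + 1) the values were -0.17 for grm2-07195 and -0.25 for grm8-77654 (adjusted p = 0.654 and 0.530). The median of all genes in that limma fit was also below 0, at -0.06. The log2 fold change was above 0 in 26 of 30 ionotropic genes (median 0.12) and in 7 of 13 metabotropic genes (median 0.02), a contrast that is given as a description and was not tested.

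Summed by subfamily, AMPA subunits reached 274 ± 27.0 TPM in elmo3-/- larvae and 249 ± 41.7 TPM in elmo3+/+ larvae, and NMDA subunits 253 ± 38.8 TPM in elmo3-/- larvae and 237 ± 21.9 TPM in elmo3+/+ larvae (SD, n = 6 each). Kainate subunits summed to 36.04 ± 3.25 TPM in elmo3-/- larvae and 33.6 ± 4.21 TPM in elmo3+/+ larvae, and delta subunits to 24.75 ± 3.81 TPM in elmo3-/- larvae and 24.3 ± 3.25 TPM in elmo3+/+ larvae. Group I receptors summed to 18.65 ± 3.58 TPM in elmo3-/- larvae and 18.7 ± 1.18 TPM in elmo3+/+ larvae, and group II receptors to 21.7 ± 4.58 TPM in elmo3-/- larvae and 23.85 ± 1.905 TPM in elmo3+/+ larvae. The genotypes overlapped in every subfamily. In TPM the elmo3-/- pools were more widely spread than the elmo3+/+ pools in the NMDA and delta subunits and in all 3 metabotropic groups. They were less widely spread in the AMPA and kainate subunits. In CPM the order was reversed for group III (SD 9.105 in elmo3-/- larvae and 10.35 in elmo3+/+ larvae). The NMDA spreads were closer in CPM, with an SD of 134.7 in elmo3-/- larvae and 123.4 in elmo3+/+ larvae. The elmo3-/- replicate 6 was the highest elmo3-/- pool in all 7 sums. In CPM in place of TPM the log2 ratio of the sums changed sign for delta subunits (0.026 in TPM, -0.020 in CPM), group I (-0.0066 in TPM, 0.083 in CPM) and group III (-0.11 in TPM, 0.0089 in CPM), and it kept its sign but moved for NMDA subunits (0.094 in TPM, 0.20 in CPM), kainate subunits (0.10 in TPM, 0.20 in CPM) and group II (-0.14 in TPM, -0.063 in CPM).

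**Figure D4:**
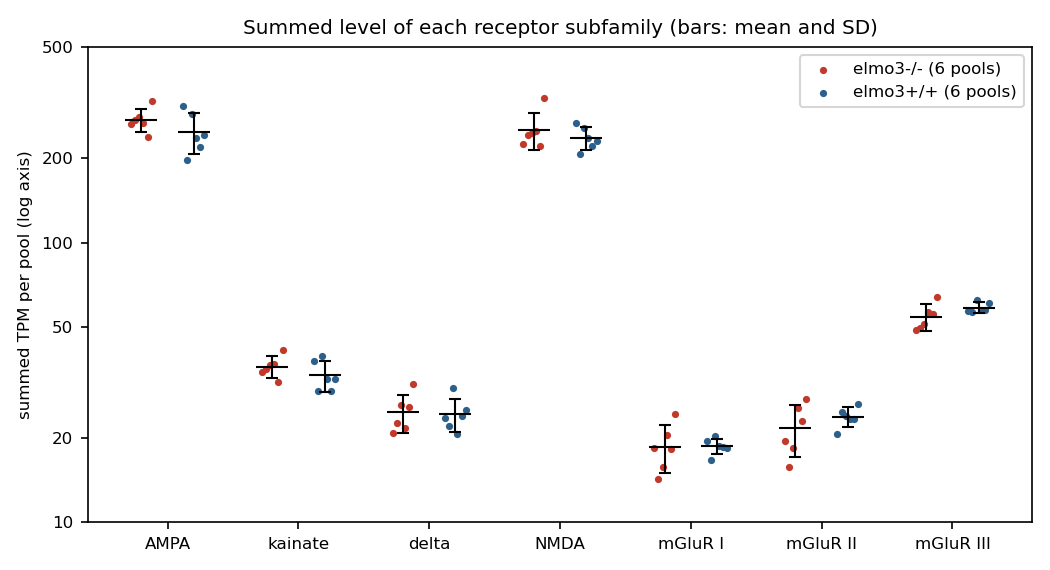
Summed TPM of each receptor subfamily per pool (log axis), with elmo3-/- pools (red) to the left of elmo3+/+ pools (blue), 6 each, and bars for the mean and SD. The genotypes overlap in all 7 subfamilies, and AMPA and NMDA sums of 197 to 328 TPM stand above all others.

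Single pools stood out across the members. Of the 45 members, 28 (62.2%) had their highest elmo3-/- CPM in replicate 6, as did 16.8% of all genes. In the wild type, replicates 1 and 3 were the 2 highest pools for 24 members (53.3%), as they were for 19.2% of all genes. Wild type replicate 2 was the lowest for 24 members (53.3%), as it was for 18.8% of all genes. The members are not independent in this, since they share the larvae of each pool.

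The sum over 24 pan-neuronal marker genes moved with the receptors. It was 5156 ± 431 CPM (4669 to 5855) in elmo3-/- larvae and 4911 ± 594 CPM (4169 to 5646) in elmo3+/+ larvae, with none of the 24 genes at 0 (SD, n = 6 each). Of the marker genes 23 were tested and 0 were called. The receptor sum reached 2214 CPM in elmo3-/- replicate 6, where the marker sum was also highest, and 1448 CPM in elmo3+/+ replicate 2, where the marker sum was lowest. Divided by the marker sum, the receptor sum was 0.369 ± 0.0120 in elmo3-/- larvae and 0.351 ± 0.0136 in elmo3+/+ larvae, with overlapping ranges of 0.352 to 0.380 in elmo3-/- larvae and 0.338 to 0.368 in elmo3+/+ larvae. For kainate subunits this ratio was 0.0227 ± 0.00129 in elmo3-/- larvae and 0.0207 ± 0.000818 in elmo3+/+ larvae, and for delta subunits it was 0.00978 ± 0.000453 in elmo3-/- larvae and 0.0105 ± 0.000562 in elmo3+/+ larvae. The kainate ratios spanned 0.0209 to 0.0240 in elmo3-/- larvae and 0.0196 to 0.0216 in elmo3+/+ larvae, which overlap. The delta ratios overlapped too, at 0.008913 to 0.01023 in elmo3-/- larvae and 0.009525 to 0.01099 in elmo3+/+ larvae. For NMDA subunits the ratio was 0.190 ± 0.0122 in elmo3-/- larvae and 0.174 ± 0.00991 in elmo3+/+ larvae. For group II it was 0.0131 ± 0.00157 in elmo3-/- larvae and 0.0145 ± 0.00169 in elmo3+/+ larvae, and the ranges of both overlapped. The part of neuronal RNA content in the receptor values was not tested.

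**Figure D5:**
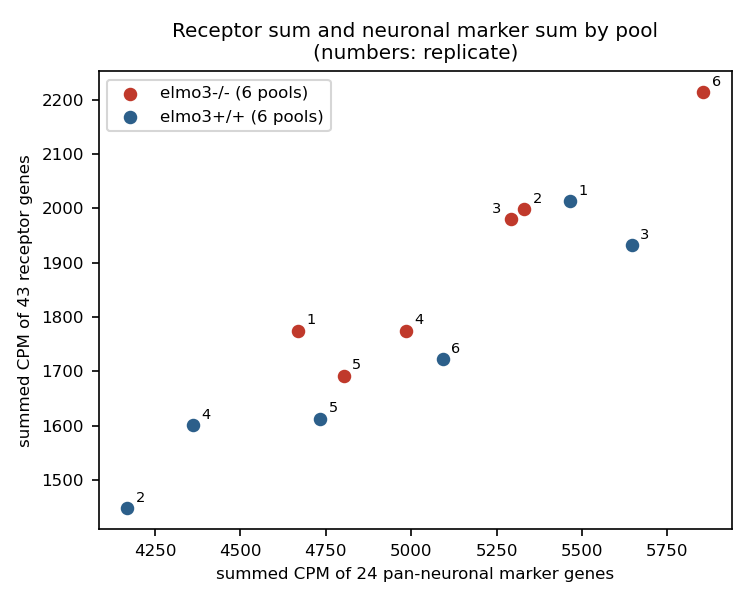
Summed CPM of the 43 receptor genes against summed CPM of 24 pan-neuronal marker genes, 1 point per pool, numbered by replicate, with elmo3-/- pools in red and elmo3+/+ pools in blue. The elmo3-/- replicate 6 (5855 and 2214 CPM) and the elmo3+/+ replicate 2 (4169 and 1448 CPM) are the extremes of both sums.

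Markers of cells that use these receptors were examined in the same fit. Of 9 Purkinje cell marker genes 8 had a log2 fold change above 0, and their sum was 805 ± 35.2 CPM in elmo3-/- larvae and 768.5 ± 46.1 CPM in elmo3+/+ larvae (SD, n = 6 each). The leading ones were skor2 with 18.3 ± 2.78 CPM in elmo3-/- larvae and 16.04 ± 1.013 CPM in elmo3+/+ larvae, and rora with 81.7 ± 7.16 CPM in elmo3-/- larvae and 73.2 ± 9.57 CPM in elmo3+/+ larvae, both encoding transcription regulators. Most of the Purkinje marker sum came from 1 gene, aldoc (ENSDARG00000019702), with 524 CPM in elmo3-/- larvae and 506 CPM in elmo3+/+ larvae. Whether the genes of this list are confined to Purkinje cells in whole larvae was not tested. All 7 retinal bipolar cell genes had a log2 fold change above 0 (median 0.21), among them nyx (0.25). Of 18 photoreceptor genes 15 were above 0, led by saga (0.35) and pde6h (0.42). Radial glia markers summed to 654 ± 66.7 CPM in elmo3-/- larvae and 642 ± 53.4 CPM in elmo3+/+ larvae, with gfap at 0.11 and s100b at 0.14. Of 8 radial glia genes 6 were above 0, with a median of 0.02. The most abundant of them, fabp7 (ENSDARG00000007697), lay at -0.04. None of the genes in these lists was called.

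Tissues without a role in glutamate transmission also contributed to the pools. Exocrine pancreas markers summed to 384 ± 159 CPM (222 to 659.7) in elmo3-/- larvae and 619 ± 317 CPM (234 to 933) in elmo3+/+ larvae, with log2 fold changes of -1.08 for cel (ENSDARG00000029822) and -1.10 for prss59.1. Of the 10 exocrine pancreas genes tested 0 were above 0, with a median of -0.71 and a range of -1.10 to -0.10. Of 16 skeletal muscle genes 8 were above 0, and of the 6 genes with the symbol tnni2, which encodes a fast muscle troponin, 5 lay below 0 (-0.81 to -0.01) and 1 above (0.50). Over all 7 marker lists edgeR called 0 of 91 genes tested (0.0994% of all genes), and DESeq2 also called 0 (0.193% of all genes). At an unadjusted p under 0.05 in edgeR, 3 were higher and 4 lower, against 4.58% and 4.95% of all genes. The part of these tissues in the receptor values was not tested.

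The genes that work beside the receptors gave 0 calls as well. The smallest p-value belonged to slc6a9, the glycine transporter GlyT1, which clears the glycine that acts on NMDA receptors, with 169.8 ± 18.6 CPM (152.5 to 198) in elmo3-/- larvae and 128 ± 25.5 CPM (97.0 to 165) in elmo3+/+ larvae (log2 fold change 0.41, SE 0.12, adjusted p = 0.489, edgeR). The glial glutamate transporter slc1a3 (ENSDARG00000043148) had 30.7 ± 5.70 CPM in elmo3-/- larvae and 36.6 ± 3.75 CPM in elmo3+/+ larvae (-0.26, adjusted p = 0.511). The list of 15 uptake genes had 9 log2 fold changes above 0 and a median of 0.03.

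The genes tested from the list for delta receptor ligands all had cbln symbols, and which of them encode such ligands was not examined. The smallest p-value was that of cbln1, which encodes a secreted protein of the synaptic cleft. It had 52.2 ± 5.21 CPM in elmo3-/- larvae and 42.3 ± 6.47 CPM in elmo3+/+ larvae (log2 fold change 0.30, SE 0.10, adjusted p = 0.489, edgeR). Its relative cbln18 had 3.19 ± 0.858 CPM in elmo3-/- larvae and 4.89 ± 1.36 CPM in elmo3+/+ larvae (-0.61, SE 0.22, adjusted p = 0.495). Of 17 matched genes of this list 10 passed the filter and 4 of them were above 0.

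In the list of 24 auxiliary subunits, which control the traffic and gating of AMPA and kainate receptors, 18 log2 fold changes were above 0 and the median was 0.11. Its genes with the smallest p-values had opposite signs, cacng4 at -0.47 (2.09 CPM in elmo3-/- larvae and 2.90 CPM in elmo3+/+ larvae) and the kainate receptor partner neto2b at 0.37 (4.91 CPM in elmo3-/- larvae and 3.81 CPM in elmo3+/+ larvae). Of 32 postsynaptic scaffold genes 16 were above 0. Among these, syngap1b, a Ras GTPase activating protein of the postsynaptic density, had 58.7 ± 8.99 CPM in elmo3-/- larvae and 46.7 ± 7.365 CPM in elmo3+/+ larvae (0.33, adjusted p = 0.492), and pick1, which binds AMPA subunits, lay at -0.22.

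The calcium/calmodulin kinase CaMKII acts downstream of NMDA receptors, and 4 of its 7 subunit genes were above 0, with camk2g1 at 0.14. The genes with the symbol camk2b differed in sign, at -0.20 for the rarer one (ENSDARG00000100089, 6.86 CPM in elmo3-/- larvae and 7.88 CPM in elmo3+/+ larvae) and 0.09 for the more abundant one (ENSDARG00000011065, 176.5 CPM in elmo3-/- larvae and 165.8 CPM in elmo3+/+ larvae). Of 9 genes for the loading and synthesis of glutamate 3 were above 0, with the glutaminase gls (ENSDARG00000062812) at -0.17, its copy ENSDARG00000040705 at -0.08, and the vesicular transporter slc17a6 (ENSDARG00000001127) at -0.23. The second gene with the symbol slc17a6 (ENSDARG00000041150) lay at 0.09. The first had 23.4 ± 7.565 CPM (12.9 to 33.5) in elmo3-/- larvae and 27.5 ± 3.47 CPM (22.3 to 31.3) in elmo3+/+ larvae. No gene of these 6 lists passed an adjusted p of 0.05 in edgeR (0.0994% of all genes did). At an unadjusted p under 0.05, 5 of 97 genes tested were higher and 4 lower in elmo3-/- larvae. These counts are near the shares of all genes, 4.58% and 4.95%. DESeq2 called 0 of 104 (0.193% of all genes). It placed 5 higher and 5 lower at that unadjusted p, against 7.53% of all genes in either direction.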

How the data were processed

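Total RNA of 12 pools of larvae was sequenced on a BGISEQ-500. Per the submitters' processing notes, Trim Galore 0.6.4, kallisto 0.4.6 and the build GRCz11 were used. Strandedness and annotation release were not given in the sources used here. The authors deposited a table of expected counts (estimated counts per gene, not scaled) and a table of TPM per sample. Expected counts, 63.0% of them whole, were rounded. Gene symbols came from a table of IDs and symbols that covered 29201 of 32520 genes (89.8%), which often lacks the letter of a duplicate copy. Pairs were therefore ordered as the copy with the higher over the copy with the lower mean TPM. The build of the reference gene table differed, so no coordinates are given.

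Genotypes were compared with edgeR 4.0.16 in R 4.3.3 (quasi-likelihood test, TMM scaling, filterByExpr, genotype only, all 12 samples), with Benjamini-Hochberg adjustment over 21127 genes and a threshold of 0.05. CPM values used the same scaled library sizes. Sums, shares and pair ratios are descriptions. Alternatives were DESeq2 1.42.0, a model with 1 surrogate variable (sva 3.50.0), a block for the replicate number, limma 3.58.1 on deposited TPM after log2 with 1 or 0.1 added, scaling to the total count or the upper quartile, a filter at a mean count of 10 or none, and 1 sample left out at a time. Only the main edgeR fit was tested on simulated counts. The changes simulated there were larger than the estimate of any member, so that test does not show whether changes as small as theirs would be called. The members and gene lists were chosen with earlier results of these data known. Values were given for the most abundant member of each subfamily, the 10 members with the smallest p-values and the 2 genes with the smallest p-values of each list, and some genes that these rules name are not reported here, although counts and sums include them, save those over outlying pools, pairs and alternative fold changes. Symbols of the lists were matched exactly or else without the copy letter.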

Additional observations from a re-analysis of the deposited data

Results flagged for a closer look

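For 42 members and each genotype, the gap between the most extreme pool and its neighbour was set against the range of the 6 pools (Dixon's test), and 3 of 84 groups passed, where chance gives about 1 in 20. In 2 of them elmo3-/- replicate 6 was the highest pool. It had 84.7 CPM of gria1-21352 (next highest 74.5, lowest 69.0) and 47.2 CPM of grin2b-30376 (next 36.8, lowest 30.9). In the last group elmo3+/+ replicate 6 was the highest pool, with 52.3 CPM of grm2-07195 (next 45.5, lowest 44.5).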

How the results depend on the processing

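No member was called under any alternative in edgeR, DESeq2 or limma, and 0 genes of the pathway lists were called with DESeq2 or with the replicate block, the 2 alternatives run for them. Over the alternatives the smallest adjusted p of a member lay between 0.196 (without elmo3+/+ replicate 1) and 0.852 (without elmo3+/+ replicate 2). The number of all genes called was 17 to 23 with edgeR and limma and 55 with DESeq2.

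Same-numbered pools did not deviate together in every pair (correlations -0.29 to 0.39), so the numbers were not taken as pairs. With the replicate number as a block, 0 members and 17 of all genes were called and 6 members passed an unadjusted p of 0.05. The share of all genes at that unadjusted p is not given for this model, so the 6 cannot be set against it.

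Of 315 alternative fold changes of the named members, 13 changed sign, and the adjusted p of each stayed above 0.05. With total count scaling the log2 fold change was -0.012 for grid1-74583 and -0.015 for grid2ip-95603. With 1 surrogate variable it was -0.082 for grid1-74583, -0.014 for grik5 and -0.013 for grid2ip-95603. With limma on log2(TPM + 1) and log2(TPM + 0.1) it was -0.011 and -0.013 for grid2ip-95603 and -0.031 and -0.043 for grin2da. The medians of all genes in these limma fits were -0.06 and -0.08. Leaving out 1 pool gave -0.021 to 0.101 for grid1-74583 and -0.020 to 0.070 for grid2ip-95603. The 10 fold changes with the smallest p-values kept their sign with 1 surrogate variable but fell to between 0.015 (grik1-69139) and 0.17 (grin2db), against 0.11 to 0.35. The cause of these changes was not tested.

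The log2 ratio of sums was 0.0089 in CPM, against -0.11 in TPM, for group III, -0.020 against 0.026 for delta subunits and 0.083 against -0.0066 for group I (the cause was not tested). In counts the log2 pair ratios were 0.77 (gria3), 3.14 (grm5), 0.58 (grid1), 2.42 (grm6), 1.21 (grin3b), 2.98 (gria1), 0.52 (grm8), 1.63 (grm2), 0.66 (grin2c), 0.27 (grin2a), 0.64 (grin1), -0.44 (gria4), -0.60 (grin2b) and -0.92 (grin2d). Counts and TPM differ by the division by length, and the divisor was not 1 fixed length per gene. CPM and TPM differ in scaling too, since CPM used TMM-scaled library sizes and TPM has 1 common sum per pool. The median log2 fold change of all genes was -0.06 by limma on log2(TPM + 1), against 0.0045 in the main fit. The part of this scaling in the ratios of sums was not tested. Counts per TPM varied between pools by 17.1% (SD over mean) for grid1-74583 and gria1-32714, against 2.1% for gria1-21352. The part of the transcripts present in each pool was not tested.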
